A study of Homo sapiens with 15 samples.

Results

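ID4 is one of the 4 inhibitor of DNA binding proteins. These proteins carry a helix-loop-helix domain without a DNA-binding region, so they hold E proteins and other basic helix-loop-helix factors in dimers that cannot bind the E-box of their target genes. They are induced by bone morphogenetic proteins in many cells, and ID4 is known from neural progenitors, astrocyte lineage cells and glioma. The 6 samples described here, of 15 in the series, were 3 of U87MG cells given lentivirus for ID4 overexpression and 3 given the control lentivirus, which the labels call GFP. They were chosen by these labels, and ID4 is the group with a clear rise of the overexpressed gene's own mRNA.

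U87MG is an established human cell line derived from a malignant glioma. All 5 groups of the series, which are GFP, ID1, ID2, ID3 and ID4, were taken 24 h after the lentivirus and hold 3 libraries each. The labels give no clone, dose, infection rate or selection, and in these bulk samples cells that took up no virus cannot be told apart from those that did. RNA was read with a kit that tags the 3′ end of transcripts, and the authors deposited counts per gene. The 6 libraries held 11089044 to 14198548 counts. Of the 25737 genes listed, 12655 had a mean of 10 or more counts over the 6 libraries and were tested; 166 of them reached this mean in the ID4 group alone and 97 in the GFP group alone. Values per library are counts, or CPM, the counts scaled to the library size after TMM normalization. A gene was called when edgeR's quasi-likelihood test, fitted over all 15 libraries, gave an adjusted p (Benjamini-Hochberg over all tested genes) under 0.05. The labels do not say that the 3 libraries of a group came from separate cultures, so p-values measure the spread between these libraries.

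The cells expressed only part of the glial program that their origin implies. VIM, the intermediate filament of mesenchymal and glial cells, stood at 3681 ± 211 CPM in GFP and 3929 ± 81.7 CPM in ID4 (SD, n = 3 each). Of 12 glioma and astroglial markers, 6 had a mean under 10 counts and 1 was at 0 in all 6 libraries; GFAP, the astrocyte filament, had 0 to 4 counts per library. The 6 endothelial and the 6 epithelial markers all had a mean under 10 counts, with summed levels of 0.420 to 0.931 CPM and 0.501 to 1.44 CPM in GFP and 0.540 to 0.771 CPM and 0.810 to 1.16 CPM in ID4. The 6 lymphocyte markers summed to 0 to 0.0846 CPM in GFP and 0.900 to 1.46 CPM in ID4, and 2 of them were at 0 in all 6 libraries. Fibroblast and pericyte markers, which include collagen genes that this line expresses, summed to 1225 to 1255 CPM in GFP and 1670 to 1760 CPM in ID4. The 7 macrophage and microglia markers summed to 52.9 to 61.01 CPM in GFP and 61.1 to 72.3 CPM in ID4; CD68 and CSF1R were tested and both were higher (log2 fold change 0.21 and 0.68, edgeR adjusted p = 0.045 and 0.0108), while C1QA was at 0 in all 6 libraries and AIF1, CD14, ITGAM and PTPRC had 0 to 5 counts each. The 7 neuron markers summed to 29.3 to 33.2 CPM in GFP and 34.6 to 38.1 CPM in ID4. RBFOX3 was at 0 and none of the 4 neuron markers tested passed. The 6 oligodendrocyte markers summed to 327 to 369 CPM in GFP and 334 to 350 CPM in ID4. Of the 2 oligodendrocyte markers tested, 1 was lower in ID4 by over 2-fold and 1 did not pass. MBP fell from 63, 62 and 58 counts in GFP to 26, 7 and 12 in ID4 (edgeR adjusted p = 2.55e-05).

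ID4 mRNA was nearly absent from the control cells and abundant in the ID4 cells. The 3 GFP libraries held 1, 2 and 0 counts of ID4 (chr6:19837601-19842428, GRCh37, + strand) and the 3 ID4 libraries 2744, 2479 and 3110 counts. The groups did not overlap, and the ratio of summed counts was 2832, with an exact 95% counting interval of 969 to 13737 that covers counting error only. The libraries labelled ID1, ID2 and ID3 held 1 to 10 counts each. Because the table gives a single count per gene, transcripts of the cell's own ID4 and of the viral insert cannot be told apart, and neither can more cells with ID4 and more ID4 mRNA per cell. These values follow from how the group was chosen and are given as a description.

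**Figure D1:**
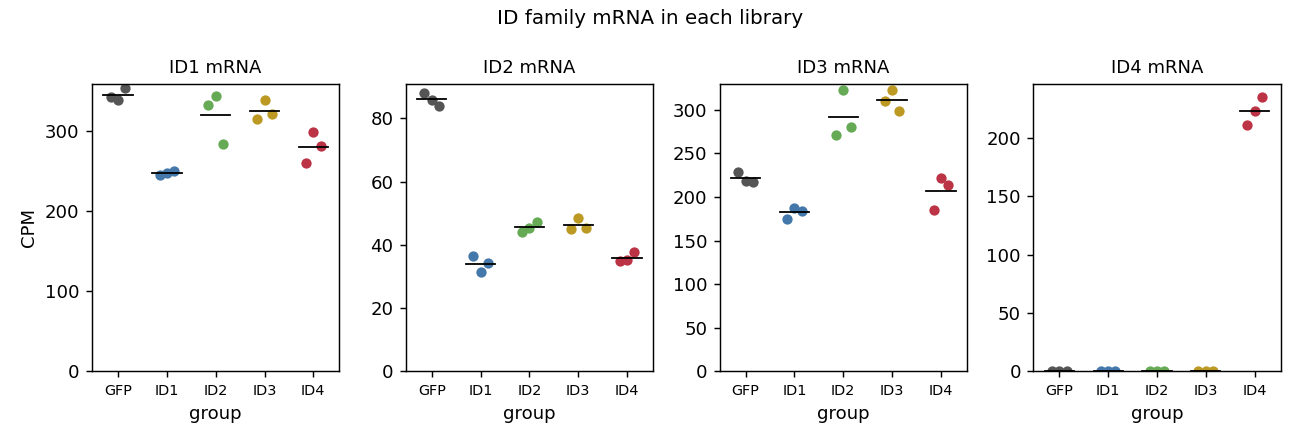
CPM of ID1, ID2, ID3 and ID4 mRNA in each of the 15 libraries (points), by labelled group, with the group mean as a line; each panel has its own axis from 0. ID4 mRNA stands at 211 to 235 CPM in the ID4 libraries and under 1 CPM elsewhere, while ID2 mRNA is highest in the GFP libraries.

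The other family members were not raised with ID4. ID2, which like ID4 is a BMP target, fell from 88.2, 85.9 and 84.1 CPM in the GFP libraries to 35.0, 35.2 and 37.6 CPM in the ID4 libraries, with no overlap. The log2 fold change was -1.26 ± 0.07 (SE) with an adjusted p of 5.23e-12 in edgeR. ID1 fell by 0.30 ± 0.06 on the log2 scale (edgeR adjusted p = 0.00115), from 346 ± 7.87 to 281 ± 18.9 CPM (SD, n = 3). ID3 was at 222 ± 6.37 CPM in GFP and 207 ± 19.4 CPM in ID4, and its groups overlapped (edgeR adjusted p = 0.344). The libraries labelled ID2 and ID3 held 45.6 and 46.3 CPM of ID2, and those labelled ID1 held 34.1 CPM, so the ID2 level of the ID4 cells lay within the range of the other ID groups. The libraries labelled ID1 held 248 CPM of ID1, less than the 346 CPM of GFP.

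Among 23 tested E proteins and other bHLH genes, 6 were called higher in ID4, ID4 itself included, and 3 lower. TCF12 (HEB), an E protein that ID proteins bind, rose by 0.55 ± 0.09 on the log2 scale (edgeR adjusted p = 0.00013), from 243, 192 and 213 counts to 347, 271 and 316. It lies on chromosome 15, whose genes were shifted upward as a whole (described further on). TCF4, the E protein E2-2, rose from 79.2 ± 1.07 to 95.0 ± 4.28 CPM (log2 fold change 0.26, edgeR adjusted p = 0.00178). TCF3, which encodes E12 and E47, was at 270 ± 19.5 and 246 ± 4.84 CPM with overlapping libraries (edgeR adjusted p = 0.111). BHLHE41, a clock-linked repressor, rose by 0.52 ± 0.06 on the log2 scale (edgeR adjusted p = 1.12e-06); it lies on a stretch of chromosome 12 that was shifted too.

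Over all tested genes, ID4 cells differed from GFP cells in 2792 genes (22.1%), of which 1521 (12%) were higher and 1271 (10.0%) lower in ID4. Most differences were small. The median size among called genes was 0.39 on the log2 scale, and 318 genes (2.51%) differed by over 2-fold, 235 of them higher and 83 lower in ID4. These shares are the background against which each gene list below is to be read.

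**Figure D2:**
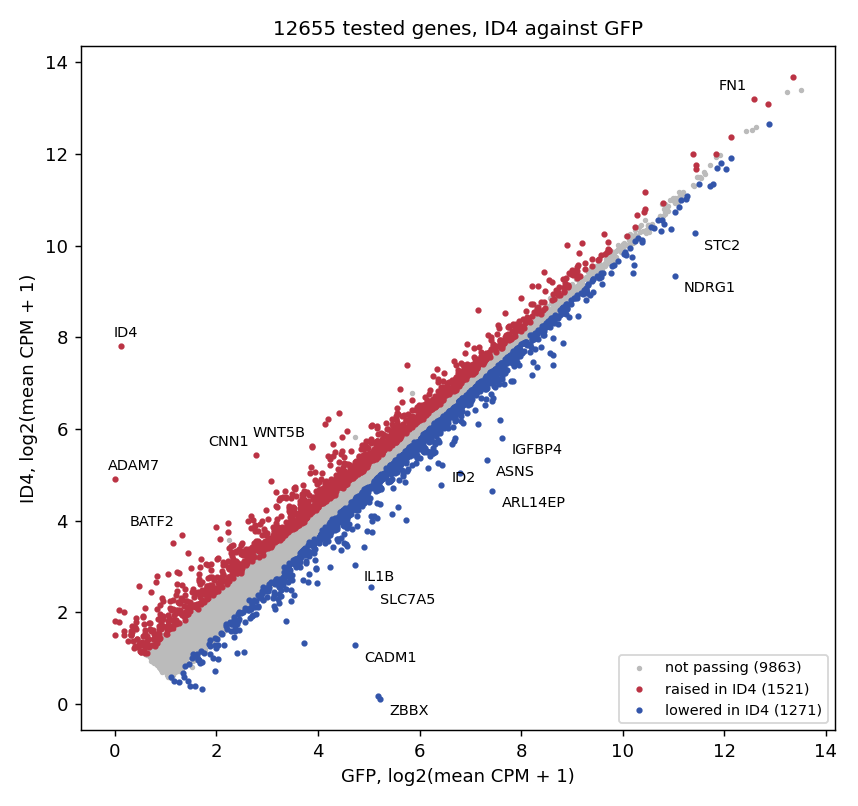
Mean expression of each tested gene in the 3 GFP libraries (x) and the 3 ID4 libraries (y), both as log2(mean CPM + 1), with genes called higher in ID4 in red, lower in blue and others in gray. ID4 and ADAM7 stand far above the diagonal, and ZBBX, CADM1, SLC7A5 and ARL14EP far below it.

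The genes that rose most were silent or nearly silent in the control cells. ADAM7, a member of the ADAM family best known from the epididymis, had 0 counts in all 3 GFP libraries and 379, 320 and 388 counts in the ID4 libraries, at least 370-fold higher when 3 counts over the GFP group are taken as the floor. The ADAM7 level was not particular to ID4, since the libraries labelled ID1 held 25.2 CPM against 29.1 CPM. LUZP4, a testis-linked mRNA export factor, and SI, the intestinal sucrase-isomaltase, also had 0 counts in GFP and were at least 31.9-fold and 23.4-fold higher in ID4 by the same floor, with 94 and 69 counts over the 3 ID4 libraries. SCN2B, a sodium channel subunit, had 4, 2 and 4 counts against 31, 23 and 31, a ratio of 8.67 (95% counting interval 4.49 to 18.7). EMC10, a subunit of the ER membrane complex, rose from 20, 13 and 13 counts to 126, 120 and 142 (log2 fold change 3.10 ± 0.20, edgeR adjusted p = 1.35e-10). SCN2B and EMC10 were also above GFP in every library labelled ID1, ID2 or ID3. EMC10 stood at 13.5 to 17.4 CPM in those labelled ID2, above the 9.71 to 10.8 CPM of ID4. CALCRL, the receptor for calcitonin gene-related peptide and adrenomedullin, rose from 7, 3 and 5 counts to 63, 59 and 62. ADAM7, LUZP4, SI, SCN2B and CALCRL reached the count minimum in the ID4 group alone, so they could enter the test only by being high there. No library of one group reached the level of the other for any of these genes.

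The genes with the largest falls belonged to different families. ZBBX had 583, 416 and 400 counts in GFP and 2, 0 and 1 in ID4, a ratio of 457 (95% counting interval 156 to 2220). ZPLD1 had 539, 441 and 371 counts against 0, 2 and 3, a ratio of 265 (interval 113 to 817). Each was also low in the libraries labelled ID1, ID2 and ID3, at 0.0715 to 0.315 CPM for ZBBX and 0.0219 to 0.0738 CPM for ZPLD1. CADM1, an immunoglobulin adhesion molecule, fell from 361, 306 and 303 counts to 21, 17 and 15 (log2 fold change -4.16 ± 0.17, edgeR adjusted p = 6.59e-14). HGF, the ligand of the MET receptor, had 37, 29 and 21 counts against 5, 1 and 4, a ratio of 8.53 (interval 4.42 to 18.4). CADM1 and HGF were also below GFP in every library labelled ID1, ID2 or ID3, at 1.54 to 5.25 CPM and 0 to 0.885 CPM. ZBBX, ZPLD1 and HGF reached the count minimum in the GFP group alone, so they could enter the test only by being high there. ARL14EP fell from 172 ± 12.5 to 24.1 ± 1.71 CPM (log2 fold change -2.83 ± 0.07, edgeR adjusted p = 2.72e-17), and stood at 24.6 to 26.5 CPM in the libraries labelled ID1, ID2 and ID3.

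Genes of the amino acid response had the lowest median log2 fold change of the 30 gene lists. This response is run by the transcription factor ATF4, which is translated when amino acids are short or the integrated stress response is active, and which with C/EBP partners induces amino acid synthesis, uptake and tRNA charging genes. Of 30 tested members, 22 fell and 1 (CEBPB) rose, with a median log2 fold change of -0.68 against -0.01 over all tested genes and a background of 10.0% lowered. CEBPB rose by 0.19 on the log2 scale, and its edgeR adjusted p was 0.135, 0.0781, 0.0804 and 0.111 without ID4 replicate 1 or 2 or GFP replicate 1 or 2. ASNS, which makes asparagine, fell from 2158, 1937 and 1980 counts to 494, 458 and 501 (log2 fold change -2.04 ± 0.06, edgeR adjusted p = 6.39e-16). PSAT1, of serine synthesis, fell from 84.5 ± 5.75 to 26.5 ± 1.51 CPM (log2 fold change -1.67, edgeR adjusted p = 1.53e-12), and PHGDH, the first enzyme of that pathway, from 71.2 ± 4.13 to 34.5 ± 0.859 CPM. CHAC1, a glutathione-degrading enzyme, fell from 62, 53 and 49 counts to 14, 17 and 12. The secreted glycoprotein STC2 fell from 2739 ± 115 to 1231 ± 21.6 CPM (log2 fold change -1.15, edgeR adjusted p = 7.92e-14), and DDIT4, an inhibitor of mTORC1, from 397 to 168 CPM (log2 fold change -1.24). ATF4 mRNA itself fell by 0.52 ± 0.05 on the log2 scale, from 307 to 214 CPM (edgeR adjusted p = 2.21e-07). The libraries of the groups did not overlap for any of these genes.

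Transporters and tRNA charging enzymes were lower in part. Of 21 tested amino acid transporters 8 fell and 2 rose, and of 37 aminoacyl-tRNA synthetases 15 fell and 0 rose. SLC7A5 (LAT1), the light chain of the main leucine transporter, fell from 434, 393 and 380 counts to 68, 51 and 62 (log2 fold change -2.71 ± 0.13, edgeR adjusted p = 1.62e-12), while SLC3A2, its heavy chain, fell less, from 69.9 to 44.3 CPM (log2 fold change -0.66). SLC7A11, the cystine importer, fell from 52.3 ± 2.33 to 15.1 ± 1.66 CPM (log2 fold change -1.79, edgeR adjusted p = 1.03e-11). SLC43A2 and SLC7A8, which also carry large neutral amino acids, went the other way, from 9.16 to 24.1 CPM and from 3.92 to 8.90 CPM (edgeR adjusted p = 3.1e-07 and 0.000179). The synthetases that fell carry the symbols of the cytosolic enzymes, of which GARS also serves mitochondria. GARS, CARS, AARS and WARS fell by 0.76, 0.67, 0.69 and 0.66 on the log2 scale, and the 22 synthetases that did not pass included those named as mitochondrial by the suffix 2. None of these 3 lists held a gene particular to ID4 as defined further on: ASNS stood at 33.4 to 40.7 CPM and SLC7A5 at 2.70 to 6.25 CPM in the libraries labelled ID1, ID2 and ID3.

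The promoters of the falling genes are shown because the factors of this response bind a short known sequence, TGATGNAA. It was searched on both strands, after the gene values were seen, in RefSeq promoter windows (GRCh38.p14) of 250 bases before and 50 bases after a transcript start. Of 35116 windows 1270 (3.62%) held it, which is a share of windows and not of genes. Windows were at hand for 66 of the 87 tested members of the 3 lists, too few for a comparison of shares, so none was made. Of the 47 called members 33 had a window, and at least 12 of these had the motif in one. The count of 12 is a minimum, since motif windows were not listed for every chromosome. Among these 12, the 4 with the largest fall whose motif lay wholly before the start are shown. Their 250 bases before the start are given 5′ to 3′, with the motif in capitals.
ASNS, chr7:97872409-97872658, - strand, motif from 68 bases before the start: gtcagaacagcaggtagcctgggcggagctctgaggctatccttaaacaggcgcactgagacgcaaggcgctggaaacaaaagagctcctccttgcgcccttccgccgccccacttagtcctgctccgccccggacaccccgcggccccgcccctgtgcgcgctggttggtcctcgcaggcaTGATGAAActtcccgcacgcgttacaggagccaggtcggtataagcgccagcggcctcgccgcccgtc
CHAC1, chr15:40953221-40953470, + strand, motif on the opposite strand from 209 bases before the start: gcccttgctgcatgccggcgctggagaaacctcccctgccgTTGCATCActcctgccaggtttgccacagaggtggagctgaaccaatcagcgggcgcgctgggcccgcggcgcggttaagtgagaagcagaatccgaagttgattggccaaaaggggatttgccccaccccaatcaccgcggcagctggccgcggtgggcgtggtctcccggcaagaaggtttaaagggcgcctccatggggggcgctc
CEBPG, chr19:33373863-33374112, + strand, motif from 42 bases before the start: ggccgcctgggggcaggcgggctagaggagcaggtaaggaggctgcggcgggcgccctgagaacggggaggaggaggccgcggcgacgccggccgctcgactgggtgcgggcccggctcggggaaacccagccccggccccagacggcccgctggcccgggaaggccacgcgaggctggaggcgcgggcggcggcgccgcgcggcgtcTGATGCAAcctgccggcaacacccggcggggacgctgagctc
AARS, chr16:70289507-70289756, - strand, motif on the opposite strand from 187 bases before the start: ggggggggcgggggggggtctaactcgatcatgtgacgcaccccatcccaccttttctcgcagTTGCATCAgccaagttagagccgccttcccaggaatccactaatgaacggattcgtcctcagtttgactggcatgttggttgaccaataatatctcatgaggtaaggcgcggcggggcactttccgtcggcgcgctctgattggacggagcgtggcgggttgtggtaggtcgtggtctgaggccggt
These 4 genes fell by 2.04, 1.89, 0.71 and 0.69 on the log2 scale. A match describes the letters of the window and does not show that a factor was bound there.

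Hypoxia targets and glycolytic enzymes fell as well. HIF factors induce these genes at low oxygen, and glioma cells are known for high glycolysis. Of 39 tested members 24 were lower and 5 higher in ID4, with a median log2 fold change of -0.28. NDRG1, a stress- and hypoxia-induced gene, fell from 28690, 24788 and 25359 counts to 8643, 7004 and 8687 (log2 fold change -1.67 ± 0.04, edgeR adjusted p = 2.72e-17). VEGFA, the angiogenic growth factor, fell from 381 ± 24.3 to 199.6 ± 7.12 CPM (log2 fold change -0.93, edgeR adjusted p = 1.55e-09). EPAS1, which encodes HIF-2α, fell from 76.0 to 43.2 CPM and BNIP3, a mitophagy receptor, from 298 to 175 CPM. In the libraries labelled ID1, ID2 and ID3, NDRG1 stood at 663 to 855 CPM and VEGFA at 146 to 184 CPM, also below GFP. EPAS1 and BNIP3 were below GFP there too, and the list held no gene particular to ID4 as defined further on. SLC2A1 (GLUT1), LDHA and PGK1 fell by 0.65, 0.44 and 0.43 on the log2 scale, each without overlap. The list did not move as a block, since PFKM and P4HA2 rose by 0.50 and 0.37 on the log2 scale and HIF1A by 0.21 (edgeR adjusted p = 1.96e-06, 0.000203 and 0.0162). For HIF1A the adjusted p was 0.0837, 0.071 and 0.0884 without ID4 replicate 1, GFP replicate 2 or GFP replicate 3. PFKM lies on the stretch of chromosome 12 whose genes were shifted upward.

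Inflammatory genes were lower in part. Of 27 tested chemokine, interleukin 1 and NF-kB genes 12 fell and 5 rose (median log2 fold change -0.32). IL1B fell from 402, 277 and 292 counts to 91, 63 and 119 (log2 fold change -1.80 ± 0.15, edgeR adjusted p = 1.54e-08), and the neutrophil chemokine gene CXCL8 from 248, 141 and 182 counts to 71, 65 and 59 (log2 fold change -1.51 ± 0.25, edgeR adjusted p = 0.000135). Among the factors themselves, RELA fell from 155 ± 5.53 to 116 ± 3.43 CPM (log2 fold change -0.42) and RELB from 47.1 ± 3.67 to 28.5 ± 3.90 CPM (log2 fold change -0.72, edgeR adjusted p = 4.89e-06). IL11, a cytokine of the gp130 family, rose from 15.8 ± 2.74 to 31.9 ± 3.46 CPM (log2 fold change 1.01, edgeR adjusted p = 8.13e-07). Interferon-stimulated genes stayed near the background, with 3 of 35 higher and 5 lower.

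Contractile and matrix genes were the lists with the largest shares of members higher in ID4. Of 36 tested actin cytoskeleton genes and targets of serum response factor 17 rose and 2 fell (median log2 fold change 0.21), against a background of 12% raised. Of those that rose, 16 lay outside chromosome 15, and any on the shifted stretch of chromosome 12 were not taken out. CNN1 (calponin), a smooth muscle actin-binding protein, rose from 113, 68 and 47 counts to 561, 465 and 557 (log2 fold change 2.83 ± 0.13, edgeR adjusted p = 8.48e-13). MYL9, a myosin regulatory light chain, had 7, 4 and 2 counts in GFP and 38, 29 and 32 in ID4, and reached the count minimum in the ID4 group alone. TPM2 and CALD1, which bind actin filaments, rose from 140, 165 and 141 counts to 322, 237 and 303 and from 372 to 609 CPM (edgeR adjusted p = 1.16e-06 and 2.43e-08). TPM1, on chromosome 15, rose from 121 ± 1.15 to 229.5 ± 6.88 CPM, a log2 fold change of 0.92 where the median of its chromosome was 0.37. CFL1 (cofilin), which severs filaments, was 1 of the 2 that fell, from 1742 to 1501 CPM. The CNN1 level of the ID4 cells, 42.4 CPM, was set beside 57.1, 65.8 and 42.0 CPM in the libraries labelled ID1, ID2 and ID3.

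**Figure D3:**
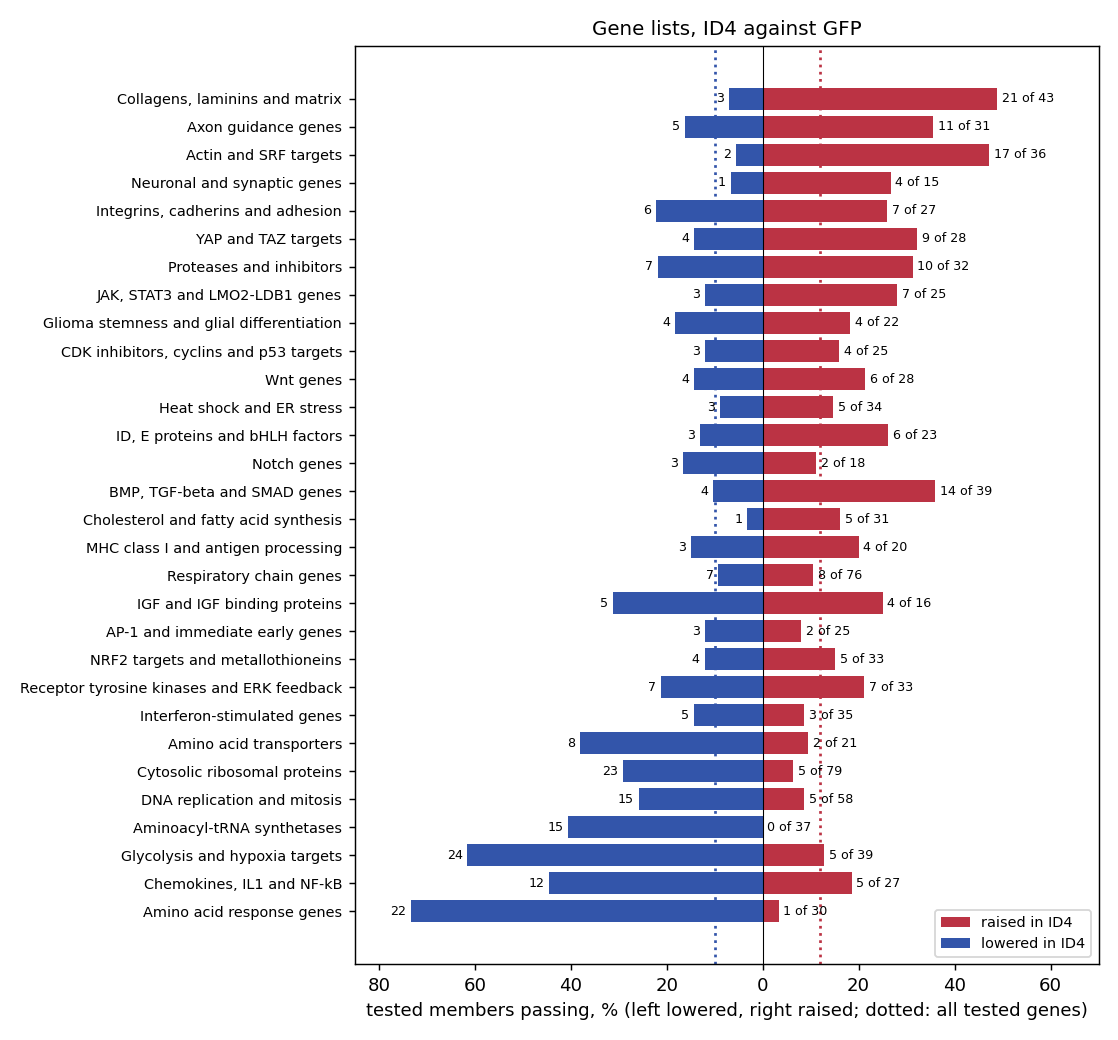
Share of the tested members of each of 30 gene lists that were called higher (right, red) or lower (left, blue) in ID4 than in GFP, in percent, with the counts beside the bars and dotted lines at the shares over all tested genes. The lists are ordered by median log2 fold change, from amino acid response genes at the bottom to collagens, laminins and matrix at the top.

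Of 43 tested collagen, laminin and other matrix genes 21 rose and 3 fell (median log2 fold change 0.28), and 19 of the raised ones lay outside chromosome 15. Any members on the shifted stretch of chromosome 12 were not taken out of these 19. FN1 (fibronectin) rose from 87632, 75749 and 69501 counts to 129474, 97973 and 124156 (log2 fold change 0.62 ± 0.06, edgeR adjusted p = 2.09e-07). COL1A2 rose from 791 ± 31.9 to 1212 ± 36.9 CPM, while COL1A1, which encodes the partner chain of type I collagen, was at 417 ± 14.7 and 442 ± 11.99 CPM (edgeR adjusted p = 0.244). HSPG2 (perlecan) rose from 8.59 to 21.6 CPM and COL7A1, of anchoring fibrils, from 17.8 ± 2.13 to 36.1 ± 1.89 CPM (edgeR adjusted p = 4.92e-06 and 1.23e-07). LOXL1, a cross-linking enzyme on chromosome 15, rose from 590 to 1061 CPM (log2 fold change 0.85). COL13A1, a transmembrane collagen, fell from 77.5 to 44.1 CPM and COL6A3 from 3349 to 2531 CPM (edgeR adjusted p = 6.91e-09 and 0.00138). The summed fibroblast and pericyte markers, given above, were higher in the same libraries. COL1A1 and COL1A2 are among these markers and hold most of the sum, so it is not a separate observation. Any part of such cells in this result was not tested.

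Signaling genes around TGF-β and BMP, the pathway that induces ID genes, rose more often than they fell, with 14 higher and 4 lower of 39 tested. Of the 14, 12 lay outside chromosome 15, and any on the shifted stretch of chromosome 12 were not taken out. BAMBI, TGFBR2, SMAD9 and TGIF1 were called lower, and each no longer passed in some fits with 1 library left out. Among ligands, TGFB2 rose from 34.6 ± 1.11 to 52.1 ± 0.629 CPM (edgeR adjusted p = 2.67e-07) and INHBA, the activin A subunit, from 18, 24 and 15 counts to 78, 41 and 71 (log2 fold change 1.75 ± 0.23, edgeR adjusted p = 7.29e-06). Among inhibitors, FST (follistatin), which traps activin, rose from 17.7 to 39.9 CPM, and the inhibitory SMAD6, on chromosome 15, from 12.3 to 24.2 CPM (log2 fold change 0.98, edgeR adjusted p = 3.68e-08). SMURF2, a ubiquitin ligase for SMADs and their receptors, rose from 126, 89 and 94 counts to 305, 264 and 309 (log2 fold change 1.54 ± 0.13, edgeR adjusted p = 7.63e-09). TGFB2, FST and SMAD6 were also above GFP in every library labelled ID1, ID2 or ID3. They stood there at 66.6 to 79.8, 28.5 to 40.6 and 16.4 to 27.6 CPM. In the list of proteases and their inhibitors 10 of 32 tested members were higher and 7 lower, and PLAU, the urokinase plasminogen activator, rose from 32.5 ± 7.24 to 67.2 ± 12.7 CPM (edgeR adjusted p = 0.00212).

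Adhesion and guidance genes were mixed. Of 27 tested integrins, cadherins and related genes 7 rose and 6 fell, with ITGB5 and ITGB8 higher (log2 fold change 0.60 and 1.18) and CADM1 lowest. Of 31 tested axon guidance genes 11 rose and 5 fell. PLXND1, a semaphorin receptor, rose from 87, 60 and 60 counts to 217, 178 and 210 (log2 fold change 1.58 ± 0.11, edgeR adjusted p = 4.69e-10). The ligand SEMA3C and the receptor NRP2 rose from 20.8 to 43.0 CPM and from 56.8 to 97.7 CPM, and the ephrin receptor EPHB4 from 30, 30 and 25 counts to 91, 91 and 114 (log2 fold change 1.82 ± 0.17, edgeR adjusted p = 3.68e-08).

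Growth factor and IGF genes moved in opposite directions. IGFBP4, which holds IGFs away from their receptor, fell from 197 ± 5.99 to 55.1 ± 1.58 CPM (log2 fold change -1.84 ± 0.06, edgeR adjusted p = 3.63e-16) and IGFBP3 from 171 to 96.7 CPM, while IGFBP6, on the shifted stretch of chromosome 12, rose from 322 to 555 CPM. IGF1R, the receptor, rose from 49, 59 and 43 counts to 138, 116 and 119 (log2 fold change 1.33 ± 0.16, edgeR adjusted p = 2.35e-06); it lies on chromosome 15. Of 33 tested receptor tyrosine kinase and ERK feedback genes 7 rose and 7 fell, with PDGFRB higher (14.8 to 26.9 CPM) and the ETS factor ETV1 lower (168 to 108 CPM). Of the 7 that rose, 3 lie on chromosome 15, and elsewhere 4 of 30 tested members rose. Among Wnt genes (6 higher and 4 lower of 28) the ligand WNT5B rose from 205, 160 and 162 counts to 607, 566 and 623 (log2 fold change 1.80 ± 0.10, edgeR adjusted p = 9.56e-12), and it lies on the shifted stretch of chromosome 12. In the Notch list (2 higher and 3 lower of 18) LFNG, a glycosyltransferase that modifies Notch receptors, rose from 5.19 to 14.9 CPM (edgeR adjusted p = 3.16e-09). MFNG fell from 1.541, 2.004 and 1.185 CPM to 0.8475, 0.4499 and 0.2266 CPM, and MAML3 from 3.012, 3.675 and 2.031 CPM to 1.387, 1.619 and 1.36 CPM. Without GFP replicate 2 neither passed.

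Genes of the STAT3 pathway and of the LMO2-LDB1 complex were examined by the study. Of 25 tested members 7 rose and 3 fell, against 12% and 10.0% over all tested genes, and IL11, whose values are given above, was the 1 that changed by over 2-fold among those called. STAT3 fell from 164 ± 9.47 to 132 ± 13.6 CPM (log2 fold change -0.32, edgeR adjusted p = 0.00158) and CEBPD, which STAT3 induces, from 14.1 to 8.84 CPM, while LIFR, a gp130 partner receptor, rose from 34.8 to 44.1 CPM (edgeR adjusted p = 0.00169). LMO2 was at 4.14 and 2.25 CPM and LDB1 at 5.04 and 4.59 CPM in GFP and ID4, and neither passed (edgeR adjusted p = 0.0603 and 0.624).

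Stem cell and differentiation genes gave no single direction, with 4 of 22 tested members higher and 4 lower and 21 members under the count minimum. SOX9, a glial progenitor factor, fell from 307, 247 and 274 counts to 131, 120 and 134 (log2 fold change -1.07 ± 0.12, edgeR adjusted p = 1.35e-06). ALDH1A3, a marker of mesenchymal glioma stem cells, fell from 315 ± 8.34 to 162 ± 0.901 CPM (log2 fold change -0.96, edgeR adjusted p = 3.38e-12), although it lies on chromosome 15. SOX2 had 0 or 1 counts per library. CHI3L1 (YKL-40), linked to mesenchymal glioma, rose from 21.9 to 41.0 CPM, and SOX4 had 3, 0 and 7 counts in GFP and 25, 20 and 29 in ID4, the group in which alone it reached the count minimum.

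Cell cycle, ribosome and respiratory genes moved by small amounts. Of 58 tested DNA replication and mitosis genes 15 fell and 5 rose, with CDK1 and the helicase subunit MCM4 lower by 0.38 and 0.32 on the log2 scale and BUB1B (chromosome 15) and FOXM1 (chromosome 12) higher by 0.54 and 0.34. Of 79 cytosolic ribosomal protein genes 23 fell and 5 rose, none by over 2-fold, and 3 of the 5 that rose lie on chromosome 15. RPL13 fell from 1807 ± 18.4 to 1413 ± 25.8 CPM. Respiratory chain genes (8 higher and 7 lower of 76) and cholesterol synthesis genes (5 higher and 1 lower of 31) were close to the background. The remaining lists, which held YAP targets (9 higher and 4 lower of 28), CDK inhibitors and p53 targets (4 and 3 of 25), MHC class I genes (4 and 3 of 20), heat shock genes (5 and 3 of 34), NRF2 targets (5 and 4 of 33), immediate early genes (2 and 3 of 25) and neuronal genes (4 and 1 of 15), are given by their counts.

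ID4 cells were then compared with each other ID group, so that differences from GFP shared by the ID groups could be set apart from those of ID4. The 4 comparisons share the ID4 libraries. ID4 differed from the libraries labelled ID1 in 632 genes (4.99%, 334 higher and 298 lower in ID4), from those labelled ID2 in 2395 (18.9%, 1164 and 1231) and from those labelled ID3 in 1475 (11.7%, 738 and 737). A gene was taken as particular to ID4 when it passed in these 3 comparisons and against GFP with 1 sign throughout. Of all tested genes 86 (0.680%) met this, 67 higher and 19 lower in ID4. Of the 86, 44 also met it under RLE size factors, DESeq2, limma, no filter on low counts and the replicate block, and without each ID4 or GFP library in turn. The counts changed with the libraries in the fit: without ID4 replicate 1 they were 374 and 856 against the libraries labelled ID1 and ID3, and 57 genes met the definition, and with only the 6 libraries compared the count against those labelled ID1 was 1071. ID4 itself, whose level chose the group, is among the 86, and 10 of the 67 higher genes reached the count minimum in the ID4 group alone, so that they could enter the test only by being high there. IGFBP4, SOX9, WNT5B and FN1, described above, were not among the 86. In every library labelled ID1, ID2 or ID3 these genes lay on the same side of all GFP libraries as in ID4.

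Several of the 67 genes had few counts in the other 12 libraries. SI had 31, 19 and 19 counts in the ID4 libraries and 0 or 1 in all others. GRM8, a metabotropic glutamate receptor, had 39, 32 and 47 counts in ID4 and 2 counts over the 3 GFP libraries, a ratio of 60.2 (95% counting interval 16.3 to 503), with 1, 1 and 0 counts over the libraries labelled ID1, ID2 and ID3. SPIB, a lymphoid ETS factor, had 29, 26 and 37 counts against 0, 1 and 1 in GFP, a ratio of 46.9 (interval 12.6 to 393). LINC01483, a noncoding RNA, had 26, 24 and 25 counts against 1, 2 and 2 (ratio 15.3, interval 6.27 to 48.5), with up to 6 counts in a library labelled ID1. CSMD3 had 24, 19 and 26 against 1, 3 and 1 (ratio 14.1, interval 5.75 to 44.7), with up to 7 in a library labelled ID3. HYAL1, a hyaluronidase, had 38, 44 and 28 against 2, 1 and 2 (ratio 22.4, interval 9.33 to 70.5), and 4 to 12 counts in the libraries labelled ID2, from which it differed by 2.42 on the log2 scale. BATF2, an AP-1 family factor induced by interferon, rose from 1.33, 1.503 and 1.69 CPM to 11.6, 11.2 and 12.9 CPM (log2 fold change 2.98 ± 0.25, edgeR adjusted p = 1e-08) and was at 0.900 to 1.52 CPM on average in the other ID groups, with 7 to 29 counts per library.

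Other genes of the 67 were expressed in all groups. POR, the electron donor of cytochrome P450 enzymes, was at 16.0, 17.8 and 16.3 CPM in GFP, at up to 18.7 CPM on average in the other ID groups and at 68.1, 68.0 and 69.1 CPM in ID4. The log2 fold change of POR was 2.04 against GFP and no less than 1.87 against the libraries labelled ID1, ID2 and ID3. POLD1, the catalytic subunit of DNA polymerase δ, was at 18.8, 19.6 and 22.1 CPM in GFP and at 82.8, 83.5 and 77.0 CPM in ID4 (log2 fold change 2.01 against GFP, and 2.18 and 2.22 against the libraries labelled ID1 and ID2). AP3S1, of the AP-3 trafficking adaptor, rose from 47.9 ± 1.97 to 116 ± 4.71 CPM. SMURF2 and IGF1R, described above, also met the definition. SMURF2 was higher by 1.54, 1.23, 1.26 and 1.42 on the log2 scale than in GFP and the libraries labelled ID1, ID2 and ID3, and IGF1R by 1.33, 0.57, 0.58 and 0.76, the latter no longer passing without ID4 replicate 1 or 2. These genes outside the naming rule were chosen after their values were seen.

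Pairs of adjacent genes were found among them. POLD1 and SPIB follow each other on the + strand of chromosome 19 (chr19:50887461-50921275 and chr19:50922195-50934571, GRCh37), 920 bases apart. SMAP1 and B3GAT2 on chromosome 6 lie on opposite strands and overlap by 5332 bases, and B3GAT2 rose by 1.90 on the log2 scale beside 1.39 for SMAP1. MRPS24 and the readthrough gene URGCP-MRPS24 on chromosome 7, both lower, share sequence. In all, 4 of 12133 pairs of neighbouring tested genes met the definition together in 1 direction. The sources do not state whether counting used the strand, so counts of overlapping genes cannot be fully told apart.

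Genes lower in ID4 than in every other group changed less. SERPINB2 (PAI-2), an inhibitor of urokinase, stood at 10.3, 8.85 and 8.97 CPM in GFP and at 2.16, 2.97 and 2.42 CPM in ID4 (log2 fold change -1.91 ± 0.19, edgeR adjusted p = 1.52e-07), with 8.95, 3.96 and 5.77 CPM on average in the libraries labelled ID1, ID2 and ID3. RELB was 0.49, 0.38 and 0.40 lower on the log2 scale than in those groups, and TNFRSF1B, the TNF receptor 2, and the NF-kB inhibitor gene NFKBIA also met the definition (log2 fold change -0.54 and -0.21 against GFP). ZEB2, a repressor of E-cadherin, fell from 42.8 ± 1.98 to 33.6 ± 3.34 CPM and NFIL3, a bZIP repressor, from 29.02 ± 2.03 to 20.6 ± 0.485 CPM. RBPMS, LRRC15 and CYB561A3 fell by 0.35, 0.31 and 0.33 on the log2 scale against GFP. When 1 ID4 library was left out, SERPINB2 and ZEB2 (replicate 1 or 3), RELB (replicate 2), and NFIL3 and CYB561A3 (any of the 3) no longer passed in all 4 comparisons.

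**Figure D4:**
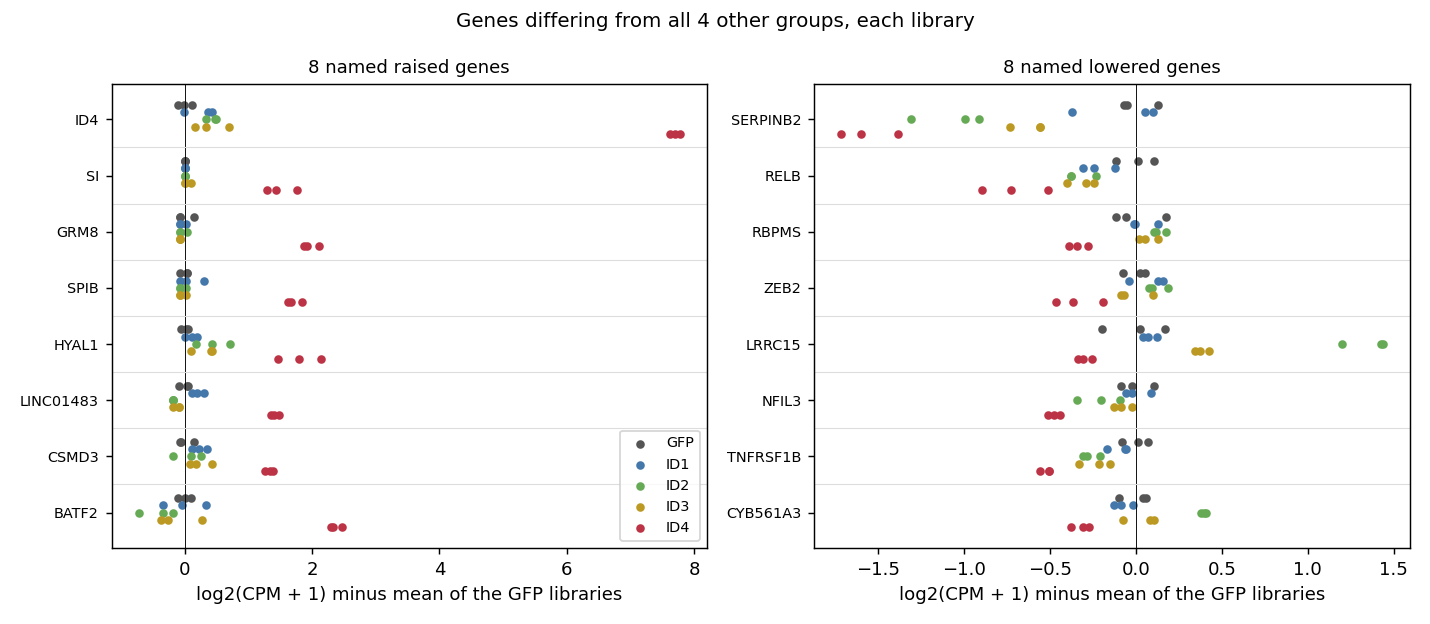
Expression of the 16 named genes particular to ID4 in each of the 15 libraries, as log2(CPM + 1) minus the mean of the GFP libraries, colored by labelled group; the panels have different x axes. The 3 ID4 libraries lie to the right of all others for the 8 raised genes and to the left of all others for the 8 lowered genes.

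The differences from GFP were not spread evenly over the genome. On chromosome 15, 229 of 410 tested genes were higher and 6 lower in ID4, and the median log2 fold change was 0.37, with 0.35, 0.38 and 0.37 in the 3 ID4 libraries against the GFP mean. In windows of 20 genes along the chromosome the median lay between 0.24 and 0.48. On chromosome 12 the genes that start before 70 Mb had a median of 0.30 (190 of 382 higher and 4 lower) and those beyond it a median of 0.01 (19 of 275 higher and 17 lower). The position was set after the windows were seen. These 2 regions held 419 of the 1521 genes higher in ID4 (27.5%), and outside them 1102 of 11863 genes were higher (9.29%) and 1261 lower (10.6%). Against the libraries labelled ID1, ID2 and ID3 the median of chromosome 15 was 0.03, 0.12 and 0.04 and that of chromosome 12 before 70 Mb 0.05, -0.01 and 0.05. Chromosome 4 was lower in ID4 by a median of -0.12 against GFP and of -0.14 and -0.15 against the libraries labelled ID1 and ID3, and was at 0.04 against those labelled ID2. The next lowest medians against GFP were -0.11, -0.10, -0.08, -0.07 and -0.06 on chromosomes 10, 8, 19, 21 and 11. On chromosome 4, 76 of 452 tested genes were lower and 19 higher. On chromosomes 10, 8 and 11, 98 of 494, 89 of 440 and 124 of 685 were lower, and 31, 24 and 54 higher.

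**Figure D5:**
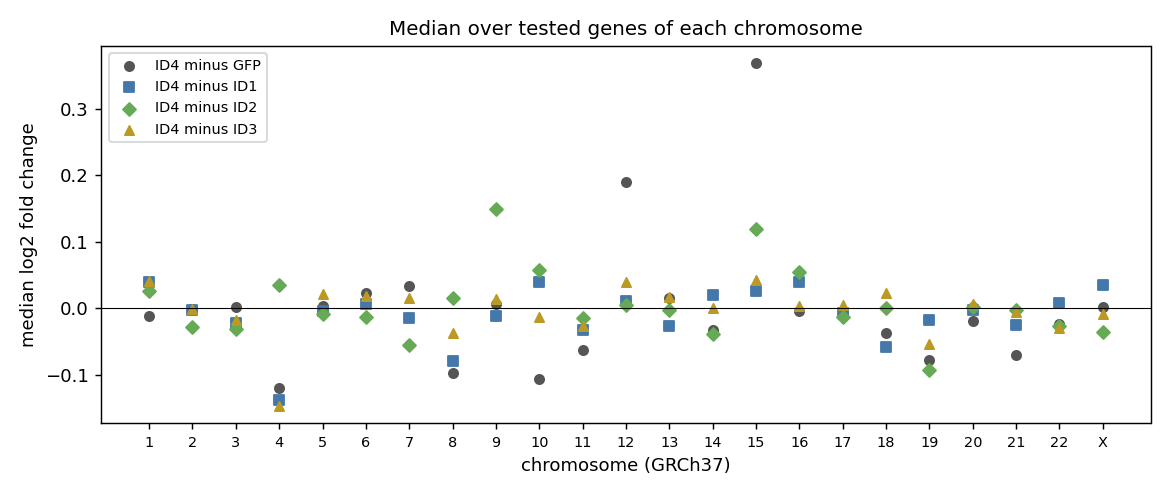
Median log2 fold change of the tested genes of each chromosome (x, GRCh37) for ID4 against each of the 4 other groups (symbols). Chromosome 15 stands at 0.37 and chromosome 12 at 0.19 against GFP, and both lie near 0 against the libraries labelled ID1 and ID3.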

How the data were processed

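U87MG cells were sampled 24 h after lentivirus in 5 groups of 3 libraries, read with the QuantSeq 3′ mRNA kit. The authors deposited raw counts per gene, used here, beside normalized log2 columns, which were not used; the submitters' processing notes name Bowtie2, BWA and hg19 (GRCh37), and versions and the strand setting are not given in the sources used here. Genes with a mean of 10 or more counts over the 6 ID4 and GFP libraries were tested with edgeR 4.0.16 (R 4.3.3; TMM, quasi-likelihood, all 15 libraries, 1 mean per group, no covariate) and Benjamini-Hochberg adjustment over all tested genes at 0.05. The 6 libraries held 11089044 to 14198548 counts. SE is the log2 fold change divided by the root of F. With 0 counts in the lower group, folds were set against a floor of 3 counts over the group; with 1 to 10, exact 95% conditional intervals were given; both cover counting error only. Alternatives used DESeq2 1.42.0, limma 3.58.1, other filters and fewer libraries. The scripts were tested on simulated data. Figures used matplotlib 3.10.9.

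Named were ID1 to ID4, the 12 genes with the largest rise and the 12 with the largest fall without overlap, up to 4 members per list by adjusted p, and 8 raised and 8 lowered genes particular to ID4; the remaining genes were picked with their values in view. The members and lists were chosen with earlier results of these data known. A planned comparison of E-box shares was void, since promoter windows covered 78.3% of tested genes. The libraries labelled ID1 and ID2 did not show raised ID1 and ID2 mRNA. A few genes that met the naming rule or the definition of a neighbouring pair are not reported here.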

Additional observations from a re-analysis of the deposited data

Results flagged for a closer look

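Differences between ID4 and another ID group, tested directly, met the criterion for a closer look. ID4 differed from the libraries labelled ID1 in 632 genes, from those labelled ID2 in 2395 genes and from those labelled ID3 in 1475 genes, and 86 genes differed from these groups and from GFP with 1 sign (edgeR, adjusted p under 0.05), ID4 itself, whose level chose the group, included. Among the named raised genes, the mean in the ID4 libraries was 1.844 CPM for SI, 3.145 CPM for GRM8 and 2.456 CPM for SPIB. It was 3.001 CPM for HYAL1, 2.017 CPM for LINC01483, 1.841 CPM for CSMD3 and 11.91 CPM for BATF2. Of these, SI, GRM8, SPIB, HYAL1, LINC01483 and CSMD3 reached the count minimum in the ID4 group alone, so their tests could only find them higher there. Among the named lowered genes, the mean in the ID4 libraries was 2.515 CPM for SERPINB2, 28.46 CPM for RELB, 29.84 CPM for RBPMS and 33.63 CPM for ZEB2. It was 103 CPM for LRRC15, 20.55 CPM for NFIL3, 42.06 CPM for TNFRSF1B and 55.69 CPM for CYB561A3.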

How the results depend on the processing

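The count of genes differing between ID4 and GFP (2792) lay between 2153 and 2339 with 1 library left out, and was 2764 with RLE size factors, 2596 with DESeq2 and 2872 with limma. Against the libraries labelled ID1, 632 became 1071 with only the libraries compared, and 374 to 634 with 1 library left out; against those labelled ID2, 2395 became 1698 to 2432, and against those labelled ID3, 1475 became 856 to 1478. Genes over 2-fold (318) were 179 with limma on log2(CPM + 1), 145 at a mean of 50 or more counts, 2792 with no fold threshold and 305 to 327 with 1 library left out. With 1 library left out, genes particular to ID4 (86) were 57 to 85 and the median of chromosome 15 was 0.3622 to 0.3875; with no filter on low counts the former were 98. The pseudocount and the stricter filter lower the second count by construction; for the other counts no cause was tested. With the replicate block the counts were 2615, 529, 2220 and 1297 against GFP and the libraries labelled ID1, ID2 and ID3, 308 over 2-fold and 79 particular to ID4. Labels share replicate numbers but no stated origin, and the deviations of equal numbers correlated at 0.015, -0.17 and -0.15, so the numbers were not taken as pairs. No value turned its direction. Of 6115 values for listed or named genes under alternatives, 505 (in 130 genes) no longer passed. The median of all genes moved by under 0.01. Depth limits genes near 10 counts.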
